A study of Rattus norvegicus with 32 samples.

Results

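Liver sinusoidal endothelial cells (LSECs) of 5 rats exposed to carbon tetrachloride (CCl4) for 6 weeks were compared with LSECs of 6 untreated rats. These 11 libraries, called fibrosis and healthy here, were chosen by their labels from the 32 libraries of the series. All were poly(A) RNA of Wistar Han rats, and the study's methods describe male animals that inhaled CCl4, with phenobarbital added to the drinking water in the CCl4 model. Whether the untreated rats also drank phenobarbital is not given in the sources used here, and the labels of the 6-week libraries give the duration without naming the toxicant. LSECs were isolated 5 to 7 days after the last exposure by liver perfusion, digestion and centrifugation over iodixanol. Libraries of 2 weeks of CCl4 (acute, n = 5) and of 12 to 14 weeks (cirrhosis, n = 6) are used only where they show how 6 weeks differ from the neighbouring stages.

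LSECs line the liver's capillaries. They carry open pores called fenestrae, lack an organized basement membrane, and clear waste proteins from blood through scavenger receptors such as the stabilins. They also hold hepatic stellate cells quiescent through nitric oxide, and send Wnt ligands and hepatocyte growth factor to hepatocytes. In chronic injury they are known to lose fenestrae and to take on features of ordinary capillaries, a change called capillarization.

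Totals ranged from 28205908 to 30679815 expected counts in fibrosis and from 33742382 to 41228835 in healthy libraries. Of 14538 genes tested, 70.2% were differentially expressed genes (DEG), meaning an adjusted p under 0.05 from limma-voom and a fold-change above 1.5. DEG higher in fibrosis made up 35.3% of the genes tested and DEG lower in fibrosis 34.9%, and these shares are the background against which every gene group below is to be read. The median absolute log2 fold change over all genes was 1.30, and 685 genes were more than 16-fold lower and 303 more than 16-fold higher in fibrosis. Library composition differed between the groups, with TMM factors (scaling factors for composition) of 0.716 to 0.938 in healthy and 1.09 to 1.17 in fibrosis. Scaling by library size alone moved the median log2 fold change of all genes from -0.03 to 0.37 and the share of DEG that were higher from 50.2% to 60.9%. Libraries of the same group stood apart from each other by 77.4 to 100.2 in fibrosis and by 90.2 to 187 in healthy LSECs (Euclidean distance over log2 CPM). Fibrosis libraries stood 240 to 313 from healthy, 106 to 137 from acute and 216.5 to 259 from cirrhosis libraries. Healthy libraries stood 111 to 212 from cirrhosis and 255 to 338 from acute libraries, so healthy lay closer to cirrhosis than to either earlier stage by the mean distance (168, against 302.6 for acute and 274.4 for fibrosis). Neither the labels nor the methods give isolation or sequencing dates, so the group and any such batch cannot be told apart.

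The isolated fractions differed in their content of other liver cells. Summed hepatocyte markers (16 genes, in CPM, read counts scaled by library size and TMM factor) reached 1468 to 33090 CPM in healthy libraries, with a median of 22260, and 1452 to 5840 CPM in fibrosis. Healthy replicates 3 and 5 were low in these markers, and the other 4 healthy libraries lay above every fibrosis library. Kupffer cell and macrophage markers (16 genes) summed to 999 to 5176 CPM in healthy and 275 to 610 CPM in fibrosis LSECs, and lymphocyte markers (14 genes) to 90.2 to 615 CPM and 8.48 to 64.4 CPM. Of the 15 macrophage markers tested, 14 were lower in fibrosis, including Clec4f, a Kupffer cell lectin (log2 fold change -4.91, standard error 0.89) and the scavenger receptor Cd163 (-4.39, standard error 0.98). Hepatocyte markers were lower in 10 of 16 tested and higher in 0. With healthy replicates 3 and 5 as the only healthy libraries, 2 hepatocyte markers were lower and 1, Alb (albumin), was higher. These 2 libraries were chosen for their low hepatocyte sums after the sums were seen. The choice itself lowers the healthy level of these markers, so the counts with replicates 3 and 5, here and below, are no test of the part of hepatocytes. Alb was among the markers without a call in the full comparison, at 840, 926, 2718, 3423 and 1935 CPM in the fibrosis libraries against 288 to 11960 CPM (median 6341) in healthy ones. In bulk RNA, fewer cells of a type and less RNA per cell cannot be told apart.

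Neutrophil markers were mostly below the low-count filter. S100a8 gave 8 counts in all fibrosis libraries together and 61 in the healthy ones, and of the 3 markers tested, Csf3r and Fcnb were lower and Lcn2 higher. Mesothelial markers were lower in 3 of 4 tested, and in 1 of 2 tested when healthy replicate 1, 2, 3, 4 or 6 was left out, with Upk3b at 480 counts over the healthy libraries and 3 over the fibrosis libraries. Cholangiocyte markers went both ways. Krt19, a keratin of bile duct cells, was at 1.08 to 15.6 CPM in healthy and 0 to 0.214 CPM in fibrosis LSECs, whereas the epithelial adhesion molecule Epcam was at 2.59, 1.56, 7.67, 13.9 and 7.19 CPM in fibrosis and at most 1.24 CPM in healthy LSECs.

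**Figure D1:**
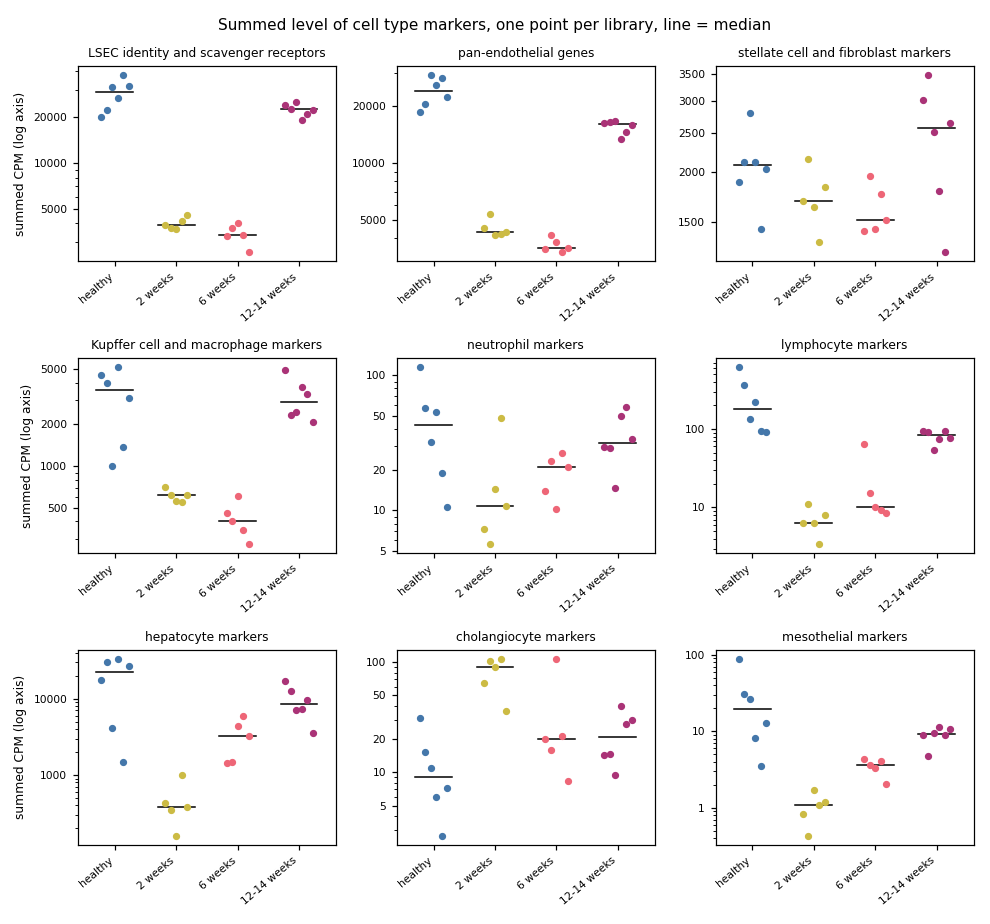
Summed CPM of the markers of 9 cell types on a log axis, with 1 point per library and a line at the median of each group (6 healthy, 5 acute, 5 fibrosis and 6 cirrhosis libraries). LSEC and pan-endothelial sums were lower in all 6-week libraries than in any healthy library, as were macrophage and lymphocyte sums, while hepatocyte and stellate cell sums overlapped. Reln, which was higher in fibrosis, made up 1153 to 1541 CPM of the stellate sum there and 117 to 214 CPM in healthy libraries.

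The genes that define LSECs were far lower after 6 weeks of CCl4. Of 22 LSEC identity genes, all of them tested, 18 were lower, 2 were higher and 2 were not DEG, with a median log2 fold change of -2.98. The 16 that did not overlap between the groups in the lower direction compare with 29.4% of all genes. The summed level of these genes was 19960 to 37620 CPM in healthy and 2594 to 4021 CPM in fibrosis LSECs. With healthy replicates 3 and 5 as the only healthy libraries, 18 were lower and 1 was higher.

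Stab1, a scavenger receptor for modified lipoproteins and matrix fragments, was at 166, 194, 164, 144 and 132 CPM in the 5 fibrosis libraries and at 2850 to 7114 CPM (median 4981) in healthy ones. It was 28.3-fold lower in fibrosis (log2 fold change -4.82, standard error 0.20, adjusted p = 3.78e-09), and no library overlapped. Stab2, the main hyaluronan receptor of these cells, was at 197, 234, 176, 187 and 87.1 CPM against 1450 to 4946 CPM (median 3536), with fibrosis replicate 17 the lowest of all. Its difference of -4.18 on the log2 scale (adjusted p = 2.94e-07) was also beyond the spread in both groups. Gpr182, an atypical chemokine receptor of the sinusoid, had the largest change of the list, from 1035 to 2052 CPM in healthy to 30.2, 48.4, 51.4, 40.6 and 34.2 CPM in fibrosis (log2 fold change -5.13, adjusted p = 2.32e-09). The Fc receptor Fcgr2b, also known as CD32b and used to mark LSECs, fell by less, to 478, 455, 672, 427 and 319 CPM from 1509 to 4298 CPM (log2 fold change -2.40, adjusted p = 9.65e-06).

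Lyve1, a hyaluronan receptor shared with lymphatic endothelium, was the weakest called fall of the list, with 546, 528, 694, 591 and 520 CPM in fibrosis within the healthy range of 501 to 2291 CPM. Its fold-change of 1.96 was a DEG with TMM (adjusted p = 0.0156) and not with library size alone (adjusted p = 0.136). The 2 members that were higher were Il1rl1, the receptor of interleukin 33 (log2 fold change 3.88), and Dab2, an endocytic adaptor (0.75). Cd36 and Tfec were not DEG. Stab1, Stab2, Gpr182 and Fcgr2b were thus detected in each fibrosis library, below every healthy library, whereas Lyve1 overlapped. The cells are called LSECs by their label.

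Genes shared by all endothelial cells fell with them. Of 20 pan-endothelial genes tested, 18 were lower, 0 higher and 2 not DEG, with a median log2 fold change of -2.69, and 18 were lower with healthy replicates 3 and 5 as the only healthy libraries. Kdr, the main receptor of VEGF, was at 270, 341, 257, 278 and 195 CPM in fibrosis against 1988 to 5489 CPM in healthy LSECs (log2 fold change -3.59, adjusted p = 1.75e-07). Nos3, the endothelial nitric oxide synthase, was at 32.0, 36.4, 26.1, 32.4 and 25.2 CPM against 552 to 1640 CPM (log2 fold change -4.99, adjusted p = 7.14e-09). Both genes were separated by a wide gap. The tight junction gene Cldn5 gave 305 counts over the 6 healthy and 3 over the 5 fibrosis libraries, a ratio of rates of 97.5 with an exact 95% interval of 33.1 to 475 for counting error.

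Cdh5, the VE-cadherin of endothelial junctions, was one of the 2 genes of this list that were not DEG. It stood at 980, 1188, 1083, 870 and 980 CPM in fibrosis and 766 to 1764 CPM (median 1385) in healthy LSECs, and its log2 fold change of -0.18 had a standard error of 0.23 (adjusted p = 0.489). The other was the transcription factor Erg (log2 fold change 0.87). Among these endothelial genes the falls were thus large for Kdr, Nos3 and Cldn5, and no change was detectable for Cdh5.

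Genes that mark capillaries did not rise as a group. Of 16 capillary and basement membrane genes tested, 8 were lower, 4 higher and 4 not DEG. Vwf, the von Willebrand factor stored by vessel endothelium, was at 11.5, 30.2, 20.3, 23.4 and 37.6 CPM against 1120 to 3927 CPM (log2 fold change -6.43, adjusted p = 2.67e-08). Cd34, a sialomucin of capillary endothelium, was at 1.75, 2.88, 1.11, 2.56 and 3.64 CPM against 5.53 to 27.0 CPM (log2 fold change -2.38, adjusted p = 0.000421). Plvap, which forms the diaphragms of fenestrae and caveolae, had a log2 fold change of -5.60. None of these 3 genes overlapped between the groups. The 4 genes that rose all encode basement membrane parts, namely the laminin chains Lamb1 (log2 fold change 2.63) and Lamc1 (1.34) and the nidogens Nid1 (1.47) and Nid2 (3.0), while the laminin chain Lamb2 fell by 4.04.

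Among 23 vasoactive genes, 11 were lower and 7 higher. Klf2, the shear-stress-induced transcription factor that drives Nos3, had the largest change, at 6.71, 6.19, 7.67, 6.02 and 6.42 CPM in fibrosis against 311 to 811 CPM (log2 fold change -6.29, adjusted p = 7.65e-09). Thrombomodulin (Thbd), an anticoagulant receptor that Klf2 induces, was at 59.9, 73.3, 65.1, 50.3 and 40.9 CPM against 985 to 2495 CPM (log2 fold change -4.67). Neither gene overlapped between the groups. Edn1, which encodes the constrictor endothelin 1, went the other way, at 27.8, 49.95, 69.9, 41.1 and 70.1 CPM against 14.1 to 33.0 CPM (log2 fold change 1.26, adjusted p = 0.00128), with fibrosis replicate 12 inside the healthy range. The cyclooxygenase Ptgs2 (log2 fold change 3.73) and the prostaglandin E synthase Ptges (5.51) also rose, while the other cyclooxygenase Ptgs1 (-3.80) and the prostacyclin synthase Ptgis (-1.42) fell.

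**Figure D2:**
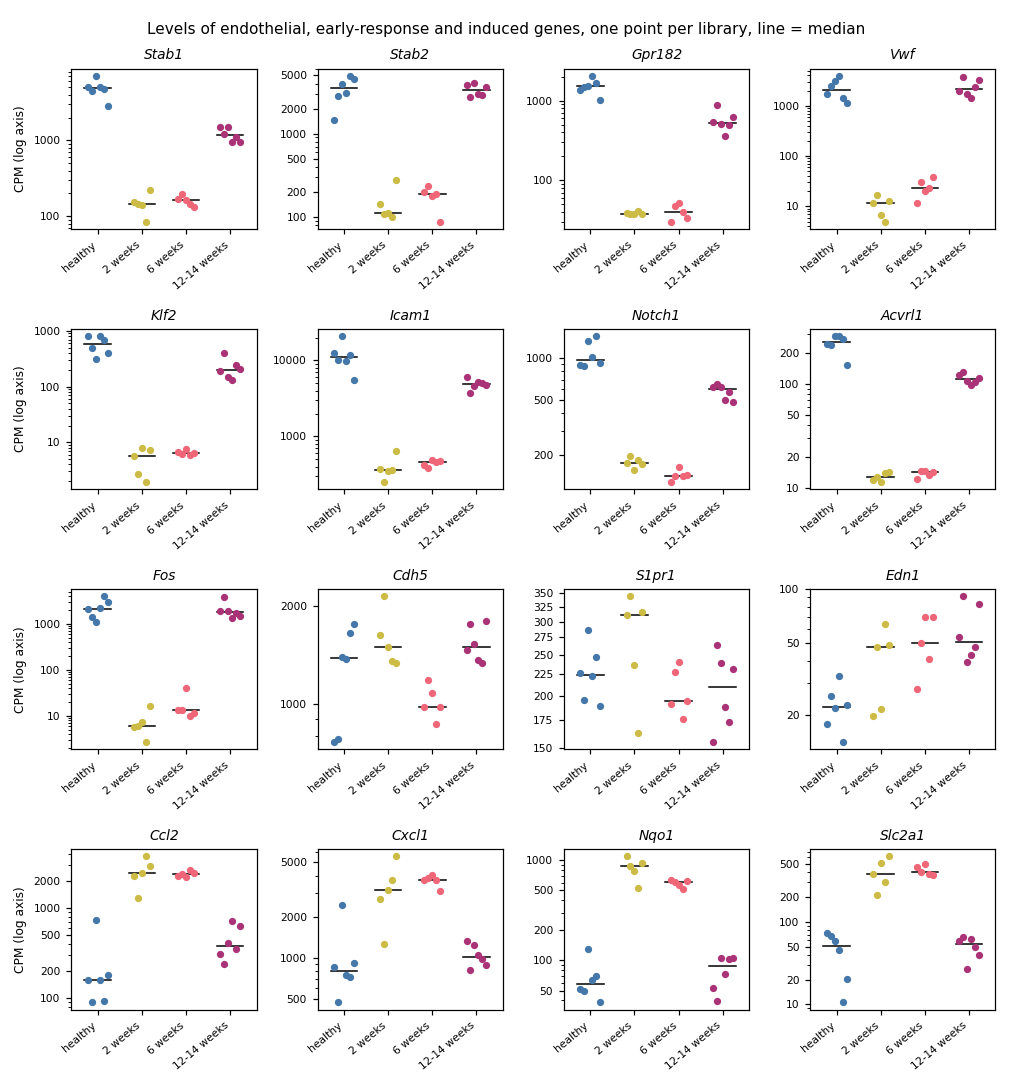
CPM of 16 genes on log axes in the 4 groups of the CCl4 model, 1 point per library with a line at the median. For the 9 genes from Stab1 to Fos the 6-week libraries lie below all healthy libraries, Cdh5, S1pr1 and Edn1 overlap, and Ccl2, Cxcl1, Nqo1 and Slc2a1 lie above.

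Of 12 leukocyte adhesion molecules tested, 7 were lower and 2 higher. Icam1, the ligand of leukocyte integrins, was at 416, 384, 491, 456 and 478 CPM in fibrosis and 5456 to 21000 CPM in healthy LSECs (log2 fold change -4.54, adjusted p = 2.73e-08). Vcam1 was at 704, 672, 903, 629 and 623 CPM against 1045 to 4091 CPM (log2 fold change -1.24, adjusted p = 0.00202). No library overlapped for either gene. The members that rose were Alcam (3.94) and Jam3 (1.06).

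The signals that LSECs send to other liver cells divided. Of 27 angiocrine genes tested, 11 were higher and 10 lower, shares close to those of all genes. Wnt2 and Wnt9b, the Wnt ligands by which sinusoidal cells keep the pericentral zone of hepatocytes, were both lower. Wnt2 was at 9.02, 12.99, 11.8, 8.33 and 13.4 CPM against 87.1 to 188 CPM (log2 fold change -3.56, adjusted p = 9.64e-08). Wnt9b was at 0.620, 0.919, 0.683, 0.704 and 0.372 CPM against 40.1 to 82.3 CPM (log2 fold change -6.43, adjusted p = 2.10e-08). Hepatocyte growth factor (Hgf) was at 15.6, 12.99, 17.4, 16.7 and 17.2 CPM, just under the lowest healthy library, in a healthy range of 18.4 to 215 CPM (log2 fold change -2.22, adjusted p = 0.00271). The Notch ligand Dll4 had a log2 fold change of -6.19, with 8.61 to 17.4 CPM in fibrosis and 631 to 916 CPM in healthy LSECs.

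The ligands that rose included Inhba, the activin subunit (log2 fold change 5.90), placental growth factor Pgf (5.86), Vegfa (2.47), Angpt2 (2.20), Pdgfa (2.51) and the stem cell factor Kitlg (3.32). Pgf was at 99.3, 105, 102, 118 and 125 CPM in fibrosis and at most 5.62 CPM in healthy LSECs. Tgfb2 was higher (1.80), Tgfb1 lower (-2.39) and Tgfb3 not a DEG.

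Several Notch receptors and targets were lower. Of 16 Notch and VEGF genes tested, 9 were lower and 3 higher. The receptor Notch1 was at 128, 142, 163, 140 and 143 CPM against 877 to 1440 CPM (log2 fold change -2.80, adjusted p = 1.78e-08), and Notch4, the endothelial Notch, changed most (-4.61). The target gene Hey1 was at 0.535, 0.919, 1.37, 0.732 and 0.458 CPM against 5.48 to 17.2 CPM (log2 fold change -3.51, adjusted p = 9.88e-06), and Hes1 (-4.36), Nrarp (-3.67) and Heyl (-1.47) were also lower. Hey2 (2.11), the DNA-binding partner Rbpj (1.68) and the tip cell gene Esm1 (3.62) were higher.

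TGF-beta and BMP genes moved in both directions, with 11 of 23 lower and 9 higher. The signal receptors went both ways too. Tgfbr2 was at 141, 152, 140, 141 and 113 CPM against 537 to 1137 CPM (log2 fold change -2.37, adjusted p = 3.11e-07), whereas Tgfbr1, its partner in the receptor complex, was at 86.5, 90.6, 80.6, 74.0 and 75.1 CPM against 5.13 to 23.6 CPM (2.62, adjusted p = 2.25e-05). Acvrl1, the endothelial receptor for BMP9, was at 12.1, 14.6, 14.4, 13.3 and 14.4 CPM against 154 to 290 CPM (log2 fold change -4.05, adjusted p = 5.01e-09). Its target genes Smad6 (-4.32), Id1 (-2.79), Id2 (-1.98) and Id3 (-1.98) were lower as well.

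Immediate-early genes, which are switched on within minutes by growth factors, stress or tissue handling, were lower as a group. Of 26 tested, 19 were lower, 3 higher and 4 not DEG, with a median log2 fold change of -3.33. For each of the 19 the groups did not overlap, so 19 of 26 were apart in the lower direction, against 29.4% of all genes tested. With healthy replicates 3 and 5 as the only healthy libraries, 18 were lower and 3 higher. Promoter sequences of RefSeq (build GRCr8, a later assembly than the Rnor_6.0 used for the counts) were matched by symbol for 19 of the 26 genes. Here and in the lists below, only genes with exactly 1 promoter entry were matched, while the shares over all promoters count every entry. The 250 bases before the start were searched on both strands for the CArG box bound by serum response factor and for the cyclic AMP response element TGACGTCA. The CArG box was in 5 of the 19 promoters (26.3%, against 1.5% of 33469 promoters) and TGACGTCA in 5 (26.3%, against 1.59%). The lines below show these letters in capitals with 10 bases on either side, read in the direction of the gene, for promoters of genes that were lower in fibrosis. A match is a description of the sequence and not evidence of binding.

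Egr1 (chr18:26736963-26736992, plus strand): gtcggtccttCCATATTAGGgcttcctgct
Egr1 (chr18:26736985-26737014, plus strand): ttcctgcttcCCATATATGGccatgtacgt
Egr2 (chr20:21054505-21054534, minus strand): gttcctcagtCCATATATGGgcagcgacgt
Zfp36 (chr1:92799121-92799150, minus strand): ccgggccgccCCATAAAAGGcgaaagctcc
Dusp1 (chr10:17184719-17184746, plus strand): gcagggcgggTGACGTCAccacccggtc
Ier2 (chr19:40399297-40399324, plus strand): ggcgtttcagTGACGTCActcttactct
Btg2 (chr13:48087874-48087901, minus strand): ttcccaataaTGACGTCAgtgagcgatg
Jund (chr16:18769975-18770002, minus strand): cccacccccaTGACGTCAacccacaatg

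Egr1, a zinc finger factor with 2 CArG boxes in this window, was at 47.0, 53.2, 96.5, 84.0 and 73.4 CPM in fibrosis against 2559 to 7516 CPM in healthy LSECs (log2 fold change -6.09, adjusted p = 6.82e-09). Egr2 (-4.23), the mRNA-decay factor Zfp36 (-5.92), the phosphatase Dusp1 (-5.42), Ier2 (-4.87), Btg2 (-4.71) and Jund (-4.86) fell too. Other members with a CArG box in this window did not fall, since the phosphatase Dusp5 was not a DEG (-0.42) and Klf6 rose by 1.81. Of the promoters with TGACGTCA, that of the transcription factor Maff also belongs to a gene that was not a DEG (-0.43).

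Fos was at 13.3, 13.1, 40.1, 9.76 and 11.3 CPM in fibrosis and 1085 to 4052 CPM in healthy LSECs (log2 fold change -7.06, adjusted p = 2.79e-08), with fibrosis replicate 15 above the other 4. Its partner Jun fell less, at 1012, 1203, 1367, 973 and 1250 CPM against 2692 to 8173 CPM (log2 fold change -1.998, adjusted p = 1.30e-05). Fosb (-8.15) had the largest fall of the list. Fosl1, a later-acting member of the Fos family, rose by 2.30, as did the phosphatase Dusp2 (3.997). Heat shock chaperones, which tissue handling also induces, were mixed, with 6 of 15 lower and 5 higher. Hspa1a was at 368, 251, 204, 188 and 805 CPM against 1988 to 7829 CPM (log2 fold change -3.94, adjusted p = 5.01e-06), Hsp90aa1 was not a DEG (-0.21, adjusted p = 0.781), and the mitochondrial chaperones Hspd1 (2.62) and Hspe1 (1.85) rose.

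Among chemokines and cytokines rises outnumbered falls. Of 27 tested, 13 were higher, 9 lower and 5 not DEG, with a median log2 fold change of 0.69. The neutrophil chemokines Cxcl1, Cxcl2, Cxcl3 and Cxcl6 rose, and the interferon-induced Cxcl9, Cxcl10 and Cxcl11 fell. The NF-kappaB motif, a sequence of 10 bases read on either strand, was in the 250 bases before the start of 7 of 18 promoters matched for this list (38.9%), against 3.54% of all promoters. The 7 windows are printed with the motif in capitals, joined where matches on the opposite strands overlap.

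Cxcl1 (higher, chr14:17479385-17479415, minus strand): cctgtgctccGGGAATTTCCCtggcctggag
Cxcl2 (higher, chr14:17467309-17467339, minus strand): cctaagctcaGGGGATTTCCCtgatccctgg
Cxcl6 (higher, chr14:17596485-17596515, minus strand): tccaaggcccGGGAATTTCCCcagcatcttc
Ccl20 (higher, chr9:91837060-91837089, plus strand): aatcaatgggGGAAAACCCCgggtgagaac
Il6 (higher, chr4:5894624-5894653, minus strand): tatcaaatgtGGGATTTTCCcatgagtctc
Cxcl10 (lower, chr14:15988869-15988898, plus strand): gcaggaaagaGGGAAATTCCaagctcatgg
Cxcl11 (lower, chr14:15973644-15973673, plus strand): gagtcaagagGGGAAATTCCtgactctctg

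Cxcl1, a ligand of the neutrophil receptor CXCR2, was at 3711, 3863, 4058, 3742 and 3093 CPM in fibrosis and 475 to 2431 CPM (median 807) in healthy LSECs (log2 fold change 2.13, adjusted p = 8.22e-05). Cxcl2 was at 1919, 1812, 2523, 1839 and 1365 CPM against 290 to 955 CPM (log2 fold change 2.28, adjusted p = 2.16e-05). All fibrosis libraries stood above all healthy ones for both. Cxcl6 gave 3481 counts over the fibrosis and 16 over the healthy libraries, a ratio of rates of 227 with an exact 95% interval of 139 to 397 for counting error. The monocyte chemokine Ccl2 was at 2275, 2399, 2238, 2642 and 2489 CPM against 90.3 to 752 CPM (log2 fold change 3.86), and Ccl7 (4.09), Csf2 (4.27), Csf3 (3.99) and Il6 (2.10) also rose. Cxcl10, an interferon-induced chemokine for T cells with the same motif upstream, was at 122, 119, 373, 86.6 and 68.2 CPM against 1195 to 3806 CPM (log2 fold change -4.27), and Cxcl9, Cxcl11, Ccl3, Ccl4, Ccl5 and Tnf were lower too. Macrophages and lymphocytes express several of these falling genes, and their markers were lower in the same libraries; their part in the result was not tested.

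NF-kappaB subunits and inhibitors did not follow the rising chemokines. Of 14 tested, 6 were lower, 2 higher and 6 not DEG. Nfkbia, the inhibitor that NF-kappaB itself induces, was at 1409, 1413, 1870, 1476 and 1298 CPM against 1635 to 3379 CPM (log2 fold change -0.41, adjusted p = 0.0657). The feedback inhibitor Tnfaip3 (-1.44, adjusted p = 0.000109) and the list member Bcl3 (-2.72, adjusted p = 8.23e-06) were lower in every fibrosis library than in any healthy one.

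Interferon and antigen presentation genes were mostly lower. Of 23 interferon-stimulated genes, 14 were lower and 3 higher, and 10 were lower with healthy replicates 3 and 5 as the only healthy libraries. Irf7, which amplifies type I interferon, was at 49.8, 56.8, 275, 90.5 and 23.2 CPM against 392 to 1687 CPM (log2 fold change -3.54, adjusted p = 0.000118). Isg15 overlapped between the groups, with fibrosis replicate 15 at 222 CPM and the other 4 at 26.5 to 55.5 CPM against 136 to 381 CPM (log2 fold change -1.77, adjusted p = 0.00370). Ifit1 had the largest fall of the list (-5.45) and also overlapped, since healthy libraries ran from 7.83 to 712 CPM. The members that rose were the guanylate-binding proteins Gbp2 (2.43), Gbp4 (4.37) and Gbp5 (2.71).

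Of 16 MHC class II and antigen presentation genes tested, 14 were lower and 1, the costimulator Cd80, was higher. The class II chain RT1-Da was at 95.7, 30.2, 58.7, 31.2 and 11.8 CPM against 172 to 1147 CPM (log2 fold change -3.64, adjusted p = 0.000169). The invariant chain Cd74 was at 278, 90.4, 175, 81.9 and 31.5 CPM against 396 to 3643 CPM (log2 fold change -3.60, adjusted p = 0.000381). Their lowest values were in fibrosis replicate 17, which also had the lowest macrophage marker sum at 275 CPM. Their highest values were in replicate 12, with a macrophage sum of 460 CPM, whereas the highest sum, 610 CPM, was in replicate 15. The part of macrophages in this result was not tested. B2m, the light chain of class I, was not a DEG (-0.14).

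Antioxidant genes under NRF2 rose. Of 12 tested, 10 were higher, 0 lower and 2 not DEG, with a median log2 fold change of 2.15, and 9 were higher with healthy replicates 3 and 5 as the only healthy libraries. Nqo1, a quinone reductase, was at 636, 610, 568.1, 519 and 625.3 CPM in fibrosis and 38.2 to 130 CPM in healthy LSECs (log2 fold change 3.34, adjusted p = 2.10e-07). Heme oxygenase 1 (Hmox1) was at 2640, 2439, 3425, 2125 and 1952 CPM against 617 to 1198 CPM (log2 fold change 1.70, adjusted p = 1.01e-05). The cystine transporter Slc7a11 had the largest rise, to 171, 198, 160, 181 and 228 CPM from 0.210 to 1.26 CPM (log2 fold change 8.68, adjusted p = 4.70e-09). In 10 of the 12 genes tested, those that rose, all fibrosis libraries lay above all healthy ones, against 29.3% of all genes tested.

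Genes of the aryl hydrocarbon receptor, a sensor of foreign aromatic compounds, were likewise higher, with 7 of 8 higher and 1 lower, and 5 and 0 with healthy replicates 3 and 5 as the only healthy libraries. The receptor Ahr was at 215, 230, 228, 194 and 243 CPM against 35.8 to 101 CPM (log2 fold change 1.96, adjusted p = 2.46e-05). Its target Cyp1a1 was at 35.2, 51.3, 13.4, 63.9 and 40.1 CPM and never above 0.543 CPM in healthy LSECs (log2 fold change 7.11, adjusted p = 1.34e-06), and Cyp1b1, the largest change of the list, rose by 7.37. The repressor Ahrr, another target, was higher by 4.96, and the core of the receptor's response element (GCGTG, either strand) occurred 3 times in the 250 bases before its start. That core was in 4 of 7 promoters matched (57.1%), namely those of Ahrr, Arnt, Cyp1b1 and Tiparp, and in 25.9% of all promoters. Cyp1a2, a hepatocyte enzyme, was the member that fell (-3.04), in libraries that were also lower in hepatocyte markers.

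**Figure D3:**
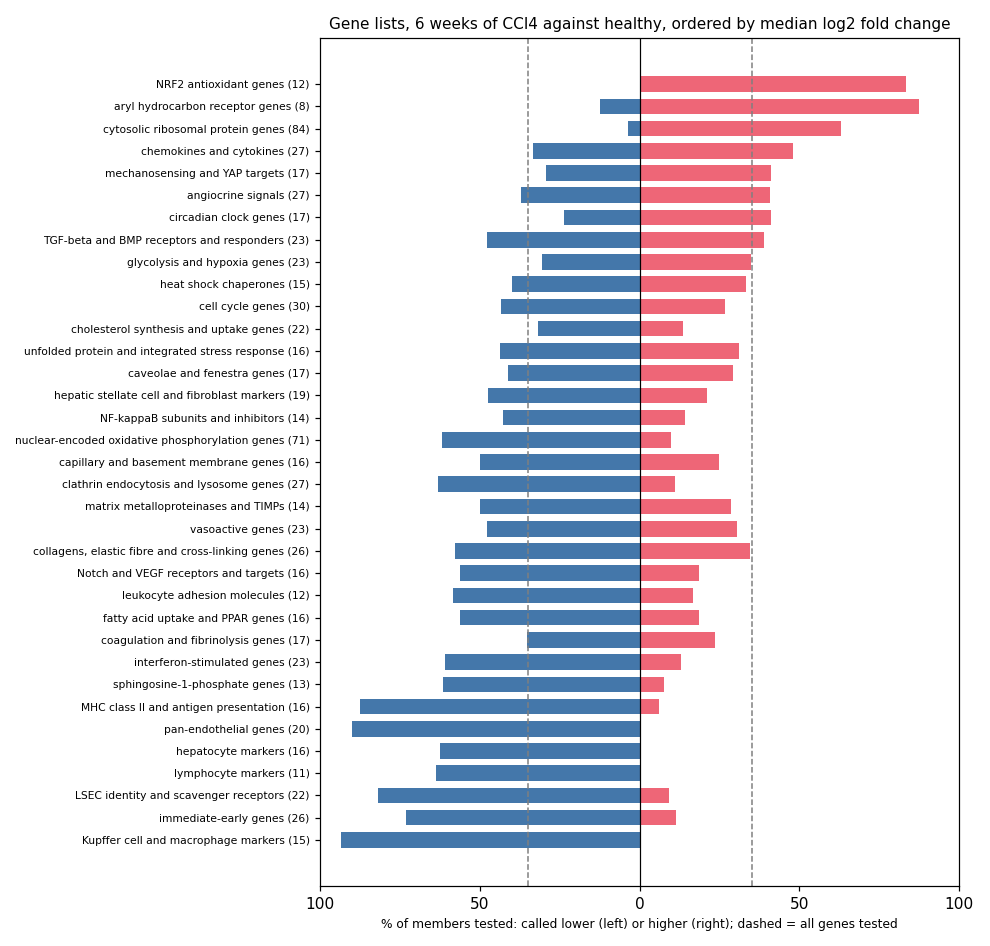
Share of the tested members of 35 gene lists that were called lower (left) or higher (right) after 6 weeks of CCl4 against healthy, ordered by the median log2 fold change of the list, with the number of genes tested in parentheses and the shares over all genes (34.9% lower, 35.3% higher) as dashed lines. NRF2, aryl hydrocarbon receptor and ribosomal protein genes are at the top, and Kupffer cell, immediate-early and LSEC identity genes at the bottom. The medians near 0 of the cell cycle, cholesterol, unfolded protein and heat shock lists turn positive under scaling by library size alone. That of cholesterol genes does so too with healthy replicates 3 and 5 as the only healthy libraries. The heat shock median is also positive under DESeq2's size factors and quality weights, and without fibrosis replicate 12, 13 or 16 or healthy replicate 5 or 6. That of glycolysis and hypoxia genes turns negative under edgeR, DESeq2, quality weights, 1 fit over 4 groups and without healthy replicate 5 or 6.

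Of 23 glycolysis and hypoxia genes, 8 were higher and 7 lower, shares close to those of all genes, and with library size alone 11 were higher and 4 lower. The glucose transporter Slc2a1 was at 457, 402, 507, 382 and 369 CPM against 10.6 to 72.7 CPM (log2 fold change 3.58, adjusted p = 1.50e-05), and hexokinase Hk2 at 128, 127, 156, 130 and 126 CPM against 12.98 to 41.5 CPM (2.47, adjusted p = 1.71e-06). The hypoxia factors went apart. Hif1a rose by 3.12, and Epas1, the endothelial HIF-2 alpha, was at 642, 790, 765, 857 and 738 CPM against 1373 to 2513 CPM (log2 fold change -1.28, adjusted p = 1.67e-05). Gapdh, Eno1, Aldoa and Ldha were not DEG.

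Many cholesterol synthesis genes had no call, with 12 of 22 genes not DEG, 7 lower and 3 higher, and with library size alone 5 lower and 6 higher. The synthase Hmgcs1 was not a DEG (-0.19, adjusted p = 0.479). A late enzyme of the pathway fell, with Dhcr7 at -3.39. Among 16 fatty acid uptake and PPAR genes, 9 were lower and 3 higher. Pparg was at 5.64, 5.36, 2.60, 6.05 and 2.78 CPM against 0.840 to 2.68 CPM (log2 fold change 1.66, adjusted p = 0.00157), Fabp4 was not a DEG (-0.17, adjusted p = 0.633), and Gpihbp1, which anchors lipoprotein lipase to capillaries, fell from 3.78 to 12.1 CPM to at most 0.214 CPM.

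The machinery of translation and of respiration moved apart. Of 84 cytosolic ribosomal protein genes tested, 53 were higher, 3 lower and 28 not DEG, with a median log2 fold change of 0.93. Rpl4 was at 1919, 1988, 1802, 1835 and 1844 CPM against 196 to 335 CPM (log2 fold change 3.002, adjusted p = 9.33e-09), and Rps3a rose by 3.30. Rps6 had the largest rise (3.63) and is uncertain, because a second gene entry of the same symbol fell by 8.21, and reads of near-identical copies can be divided between entries; many ribosomal protein genes have such copies. Of 71 nuclear-encoded oxidative phosphorylation genes, 44 were lower, 7 higher and 20 not DEG, with a median of -0.72, and with library size alone 30 were lower and 10 higher. Uqcr11, a subunit of complex III, changed most, to 21.4, 24.3, 20.1, 22.7 and 22.8 CPM from 62.0 to 151 CPM (log2 fold change -2.10, adjusted p = 8.93e-06).

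Matrix genes showed no common direction against healthy LSECs. Of 26 collagen, elastic fibre and cross-linking genes tested, 15 were lower, 9 higher and 2 not DEG. Tenascin C (Tnc), a matrix glycoprotein of injured tissue, was at 103, 176, 69.3, 153 and 20.8 CPM and never above 0.482 CPM in healthy LSECs (log2 fold change 8.75, adjusted p = 5.72e-06). Lysyl oxidase (Lox), which cross-links collagen, was at 37.1, 41.6, 29.3, 21.0 and 7.85 CPM against 0.118 to 1.16 CPM (log2 fold change 6.22, adjusted p = 8.78e-06). Fibrosis replicate 17 was lowest for both. Fibronectin (Fn1) fell, at 66.2, 63.9, 64.7, 132 and 66.4 CPM against 141 to 519 CPM (log2 fold change -1.93, adjusted p = 0.000893), and fibrillins (Fbn1, Fbn2), the type VI collagens Col6a1 and Col6a2 and Emilin1 (-5.70) were lower.

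Stellate cell and fibroblast markers were mixed as well, with 9 of 19 tested lower, 4 higher and 6 not DEG. Pdgfrb, the PDGF receptor of stellate cells, was at 5.61, 11.5, 5.92, 14.6 and 1.89 CPM against 4.17 to 12.8 CPM (log2 fold change -0.01, standard error 0.49, adjusted p = 0.988). Desmin (Des) was at 4.40, 5.67, 2.37, 6.67 and 1.15 CPM against 5.22 to 11.6 CPM (log2 fold change -1.28, adjusted p = 0.0130). The contractile genes Acta2 (4.49) and Tagln (3.95) and the secreted glycoprotein Reln (3.13) rose, with Acta2 at 22.1, 41.8, 19.97, 41.5 and 2.52 CPM against at most 1.5 CPM, and Col1a1 rose by 2.28. Replicate 17 was the lowest fibrosis library for Pdgfrb, Des, Acta2, Tagln and Col1a1. The largest fall was in Islr (-8.01), at 2.20, 3.15, 5.36, 2.76 and 1.72 CPM against 424 to 1128 CPM, so the marker sum overlapped with healthy LSECs while its main contributors differed.

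Matrix-degrading enzymes held some very large contrasts. Of 14 metalloproteinases and TIMPs tested, 7 were lower and 4 higher. The interstitial collagenase Mmp13 was at 61.0, 71.6, 106, 116 and 109 CPM in fibrosis and gave 6 counts over all healthy libraries, a ratio of rates of 2730 with an exact 95% interval of 1250 to 7430 for counting error. The stromelysins Mmp3 (23617 counts against 15) and Mmp10 (6126 counts against 4) showed the same pattern, and the macrophage elastase Mmp12 rose by 4.38. The gelatinase Mmp2 was at 6.42, 16.7, 7.74, 10.4 and 9.48 CPM against 9.97 to 30.8 CPM (log2 fold change -1.04, adjusted p = 0.0199), and Mmp9 was not a DEG (1.34, adjusted p = 0.136). Inhibitors did not rise, with Timp2 (-1.74) and Timp3 (-2.63) lower and Timp1 not a DEG.

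Among 17 coagulation and fibrinolysis genes, 6 were lower and 4 higher. Tissue factor (F3), the trigger of coagulation, was at 19.8, 28.9, 28.3, 31.8 and 16.6 CPM against 0.455 to 2.05 CPM (log2 fold change 4.54, adjusted p = 4.07e-07). Its inhibitor Tfpi was at 173, 196, 232, 177 and 203 CPM against 35.0 to 151 CPM (log2 fold change 1.43, adjusted p = 0.00216). The plasminogen activators Plat (-2.46) and Plau (-2.56) were lower.

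Endocytosis and fenestra genes were lower in part. Of 27 clathrin and lysosome genes, 17 were lower, 3 higher and 7 not DEG, and with library size alone 10 were lower and 7 higher. The clathrin heavy chain Cltc was at 690, 720, 729, 706 and 713 CPM against 364 to 851 CPM, a fold-change of 1.44 that was just under the threshold (adjusted p = 0.0370). Lamp1 of the lysosome membrane was not a DEG (-0.27, adjusted p = 0.0850), and lysosomal enzymes such as Hexa (-3.03), Ctsd (-2.73) and Ctsa (-2.64) fell. Of 17 caveolae and fenestra genes, 7 were lower and 5 higher. Rhob, a GTPase of the actin cytoskeleton, was at 240, 301, 324, 276 and 284 CPM against 1082 to 2057 CPM (log2 fold change -2.36, adjusted p = 2.90e-07), Cav1 rose by 1.44, and Cavin1, listed as Ptrf, was lower by a fold-change of 1.44, under the threshold (adjusted p = 0.00366). The kinases Rock1 and Rock2 rose, by 2.30 and 4.23.

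Most sphingosine-1-phosphate (S1P) genes were lower. Of 13 tested, 8 were lower and 1 higher. S1pr1, the endothelial S1P receptor, was at 191, 228, 240, 177 and 195 CPM against 189 to 287 CPM (log2 fold change -0.05, standard error 0.14, adjusted p = 0.744). The exporter Spns2 was at 16.7, 26.4, 18.5, 19.98 and 19.3 CPM against 256 to 571 CPM (log2 fold change -4.29, adjusted p = 7.65e-09), and the kinase Sphk1 fell by 4.65. The largest change of the list was in another S1P receptor, S1pr5, at 0.113, 0.122, 0.163, 0.253 and 0 CPM against 3.49 to 20.7 CPM (log2 fold change -5.75, adjusted p = 6.33e-05).

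Of 17 mechanosensing and YAP target genes, 7 were higher and 5 lower, and with library size alone 10 were higher and 2 lower. Their median log2 fold change of 0.55 became -0.25 with healthy replicates 3 and 5 as the only healthy libraries. The stretch-gated channel Piezo1 was at 475, 505, 442, 481 and 469 CPM against 318 to 1030 CPM (log2 fold change -0.07, adjusted p = 0.801). The YAP partner Tead1 was at 26.2, 27.5, 28.4, 27.9 and 28.3 CPM against 1.298 to 3.0 CPM (log2 fold change 3.93, adjusted p = 1.56e-08), and the target Ankrd1 at 11.8, 27.8, 12.5, 15.1 and 3.15 CPM against 1.55 to 5.09 CPM (1.96, adjusted p = 0.00638).

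Cell cycle genes did not move together, with 13 of 30 lower and 8 higher, and with library size alone 8 lower and 11 higher. The proliferation marker Mki67 was at 6.31, 5.14, 7.80, 4.92 and 3.87 CPM within the healthy range of 2.60 to 10.4 CPM (log2 fold change 0.02, adjusted p = 0.959), and Top2a was lower by 1.33 with overlap (adjusted p = 0.0137). The inhibitor Cdkn2b was the clearest change, at 57.5, 83.1, 67.5, 63.4 and 64.0 CPM against 0.840 to 1.38 CPM (log2 fold change 6.02, adjusted p = 1.81e-09), and Ccnd1, which drives entry into the cycle, fell by 3.34. Of 17 clock genes, 7 were higher and 4 lower, with Arntl not a DEG (-0.22, adjusted p = 0.471) and Per1, which is also an early-response gene, at 47.5, 41.9, 51.9, 47.7 and 42.2 CPM against 264 to 587 CPM (-3.20, adjusted p = 4.33e-08). Of 16 unfolded protein and integrated stress response genes, 7 were lower and 5 higher, and with library size alone 4 were lower. Neither Hspa5 (-0.17, adjusted p = 0.270) nor Ddit3 (-0.21, adjusted p = 0.296) was a DEG, while Asns, the asparagine synthetase under ATF4, rose to 157, 156, 126, 131 and 158 CPM from 6.52 to 16.9 CPM (4.001, adjusted p = 1.91e-08).

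The largest rises among well-expressed genes of the whole transcriptome, beside Mmd and Cyp1b1, included Akr1b10, an aldo-keto reductase, at 4983, 4800, 5206, 4019 and 4182 CPM against 19.6 to 62.6 CPM (log2 fold change 7.24, adjusted p = 1.81e-09), the microtubule protein Map1b (6.24), the AMP deaminase Ampd3 (6.01), the myristoyltransferase Nmt2 (4.91) and the ribosome assembly factor Mdn1 (4.84). Map1b was at 1481, 1716, 1746, 1271 and 1322 CPM against 12.1 to 29.7 CPM. Ampd3 was at 388, 416, 460, 380 and 399 CPM against 2.93 to 10.2 CPM. Akr1b10, Map1b, Ampd3, Nmt2 and Mdn1 each varied by less than 1.5-fold among the fibrosis libraries.

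The largest falls included genes of liver metabolism. Pck1 of gluconeogenesis was at 1.07, 1.29, 2.47, 2.59 and 1.98 CPM against 64.0 to 1116 CPM (log2 fold change -7.65, adjusted p = 1.18e-05) and Bhmt of methionine metabolism at 2.17 to 9.62 CPM against 95.4 to 1568 CPM (-6.59). These are hepatocyte genes, the healthy libraries spanned more than 10-fold, and hepatocyte markers were lower in the same comparison; their part in these falls was not tested. Pcdh12, a protocadherin of endothelial junctions, was at 4.42, 6.74, 7.15, 4.90 and 3.84 CPM against 459 to 738 CPM (log2 fold change -6.75, adjusted p = 1.26e-09), with little spread in either group.

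Compared directly with 2 weeks of CCl4, the 6-week LSECs differed in far fewer genes. Of 13931 genes tested, 11% were DEG, 10.2% higher and 0.732% lower at 6 weeks, and libraries of the groups did not overlap in 6.09% (higher) and 12.6% (lower). Few LSEC identity genes were DEG, with 1 of 22 higher and 1 lower, as did pan-endothelial genes with 1 of 19 higher, antigen presentation genes with 0 of 16 and glycolysis genes with 0 of 22. Stab1, for example, was at 84.1 to 220 CPM at 2 weeks (log2 fold change of 6 against 2 weeks 0.26, standard error 0.21, adjusted p = 0.392).

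Many matrix and stellate cell genes were higher. Of 25 collagen, elastic fibre and cross-linking genes tested, 17 were higher and 0 lower at 6 weeks, and of 17 stellate cell and fibroblast markers 10 were higher and 0 lower. Lox was at 0.622 to 2.36 CPM at 2 weeks (log2 fold change of 6 against 2 weeks 4.52, adjusted p = 0.00673), Tnc at 3.76 to 31.2 CPM (3.13, adjusted p = 0.0190), Fn1 at 14.5 to 31.7 CPM (1.91, adjusted p = 0.00363) and Mmp2 at 1.22 to 3.31 CPM (2.50, adjusted p = 0.00363). Pdgfrb (3.02, adjusted p = 0.0209) and Des (3.36, adjusted p = 0.0164) were higher too. Stellate marker sums were 1342 to 2154 CPM at 2 weeks and 1425 to 1949 CPM at 6 weeks, with Reln alone at 1306 to 2107 CPM and 1153 to 1541 CPM (log2 fold change -0.20, not a DEG).

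Hepatocyte genes were also higher at 6 than at 2 weeks, in 15 of 16 markers. The marker sum was 160 to 1004 CPM at 2 weeks and 1452 to 5840 CPM at 6 weeks, so that no library overlapped. Alb (log2 fold change 3.13), Ahsg (3.69), Gc (3.45), the complement factor C3 (3.42) and Hpx (3.39), plasma proteins made by hepatocytes, led the well-expressed genes that were higher. Ahsg was at 86.0, 61.6, 240, 364 and 194 CPM at 6 weeks and 4.48 to 25.8 CPM at 2 weeks. Vcam1 (2.64, adjusted p = 0.0215), Vwf (1.37, adjusted p = 0.0336), Hmox1 (1.18, adjusted p = 0.0200) and Slc7a11 (1.24, adjusted p = 0.00301) were higher as well. The DEG that were lower at 6 weeks were fewer and changed less. Judged by libraries that did not overlap, without a fold-change threshold, more genes were lower (12.6%) than higher (6.09%). Il33, an alarmin, was at 144, 132, 120, 172 and 254 CPM against 272 to 518 CPM (log2 fold change -1.12, adjusted p = 0.0104). Ada, adenosine deaminase, was at 25.5, 35.6, 26.8, 27.2 and 22.8 CPM against 50.8 to 59.2 CPM (-0.92, adjusted p = 0.00165), and Ptprn (-0.92) and Dusp6 (-0.94) followed.

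**Figure D4:**
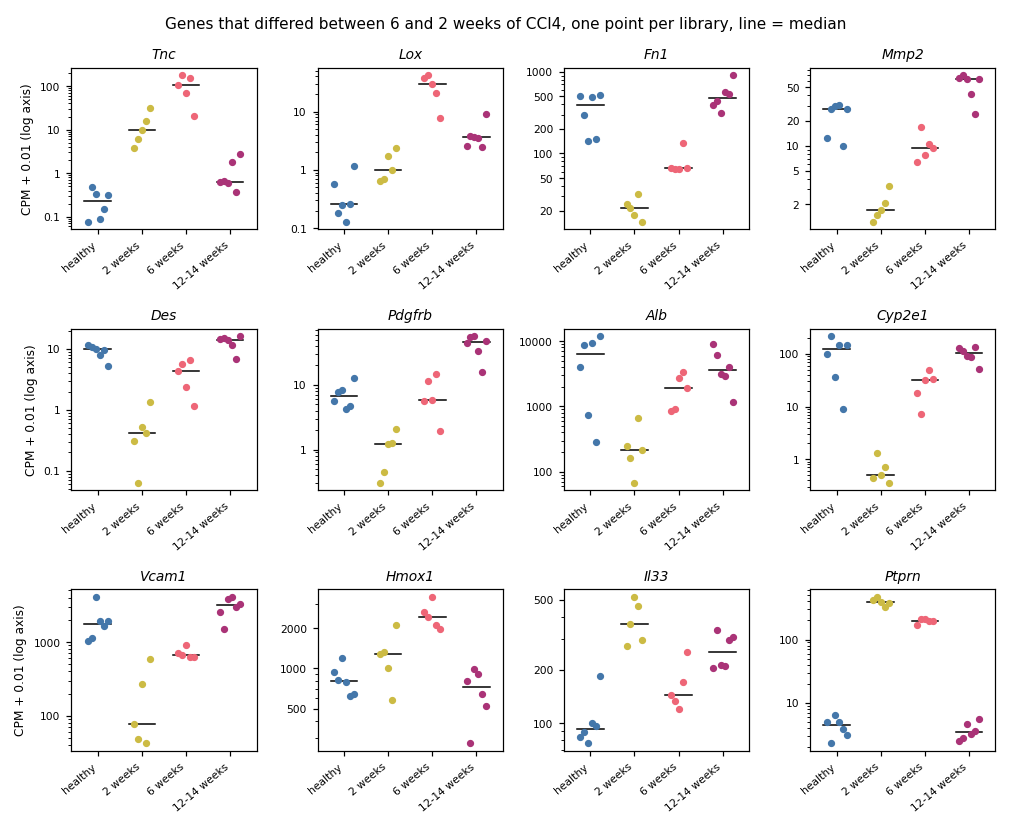
CPM plus 0.01 on log axes of 12 genes that differed between 6 and 2 weeks of CCl4, in all 4 groups of the model, 1 point per library with a line at the median. From Tnc to Hmox1 the 6-week median lies above the 2-week median, and for Il33 and Ptprn below it.

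Against cirrhosis after 12 to 14 weeks the 6-week LSECs differed widely, and 63.8% of 15186 genes tested were DEG, 34.3% higher and 29.5% lower in cirrhosis, and libraries did not overlap in 62.9%, with 32.4% higher and 30.5% lower. LSEC identity genes were higher in cirrhosis in 19 of 22 and pan-endothelial genes in 19 of 20. Stab1 was at 940 to 1511 CPM in cirrhosis (log2 fold change of cirrhosis against 6 weeks 2.84, adjusted p = 4.54e-09) and Vwf at 1399 to 3692 CPM (6.58, adjusted p = 3.72e-09). All 12 NRF2 genes were lower in cirrhosis, with Nqo1 at 39.1 to 105 CPM (-3.04, adjusted p = 6.58e-07). Immediate-early genes were higher in 18 of 26, with Fos at 1384 to 3960 CPM (6.96, adjusted p = 5.18e-09). Hepatocyte marker sums were 3593 to 17220 CPM and macrophage sums 2096 to 4925 CPM in cirrhosis, of which the macrophage sums lay above all 6-week libraries and the hepatocyte sums overlapped with them, and the part of these cells in the difference was not tested.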

How the data were processed

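Poly(A) RNA of LSECs was sequenced in strand-specific libraries. The authors trimmed reads, aligned them with STAR to Rnor_6.0 and deposited expected counts per gene from RSEM; versions are not given in the sources used here. Expected counts were rounded. Of 32623 genes, those passing filterByExpr were tested with limma-voom (limma 3.58.1, edgeR 4.0.16 for TMM, R 4.3.3) in a fit with only the 2 groups compared and no covariate, with Benjamini-Hochberg adjustment. DEG required an adjusted p under 0.05 and a fold-change above 1.5. CPM were computed here with TMM factors over the 22 libraries of the CCl4 model (healthy included), and log2 CPM with a pseudocount of 0.5. Ratios for low counts carry exact 95% intervals that cover counting error only. Each label names a separate rat.

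Genes named were lead genes of each list, the 8 largest rises and falls against healthy and the 4 largest against 2 weeks (mean log2 CPM of at least 5, no overlap), and the largest called change in each list. The groups compared and the gene lists were chosen with earlier results of these data known, and other list members were named after their values were seen. Alternatives were edgeR's quasi-likelihood test, DESeq2 1.42.0, other scalings, filters and thresholds, quality weights, 1 fit over 4 groups and leaving out each library. The scripts were tested on simulated data. Some genes that met this rule are not reported here. The 10 files of the series' other experiment were not used.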

Additional observations from a re-analysis of the deposited data

Results flagged for a closer look

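Named genes (log2 CPM) and total counts were each checked within the healthy and within the fibrosis group, 238 checks in all. In 16 of these checks 1 library stood far from the others of its group by Dixon's criterion, all on the log2 CPM scale. Chance alone gives about 11.9, and the checks share the same libraries. In fibrosis replicate 12 this held for Cd3e (1.629) and Gzma (0.8451). In fibrosis replicate 15 this held for Fos (5.342) and Hk2 (7.287). In fibrosis replicate 16 this held for Fn1 (7.054) and Ifit1 (4.573). In fibrosis replicate 17 this held for Stab2 (6.452), Tgfbr2 (6.821) and Cldn5 (-0.7711). The Cldn5 value rests on 3 counts, the only ones of this gene in the fibrosis libraries, and lies at the floor of detection. In healthy replicate 1 this held for S1pr5 (4.407). In healthy replicate 2 this held for Ampd3 (1.778). In healthy replicate 3 this held for Cxcl2 (9.9). In healthy replicate 4 this held for Ifit1 (3.058). In healthy replicate 6 this held for Acvrl1 (7.268), Per1 (8.048) and Il33 (7.53).

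Of 110 named genes tested between 6 and 2 weeks of CCl4 with limma-voom, 33 differed, by the log2 fold changes given here. Over all genes tested, 11% were DEG in this comparison. Ahsg, Gc, C3, Hpx, Il33, Dusp6, Ptprn and Ada were named because they were DEG in it. Their outcome was thus fixed in advance, and the count of 33 is not a rate to set against that share. Higher at 6 weeks were Vwf (1.366), Des (3.358), Pdgfrb (3.017), Alb (3.132), Cyp2e1 (5.366), Epcam (4.021), Hey1 (1.931), Vcam1 (2.636), Jun (0.7114), Hmox1 (1.185), Fn1 (1.908), Lox (4.52), Mmp2 (2.495), Mki67 (1.059), Arntl (0.9574), Pparg (1.64), Fosb (1.747), Ahsg (3.694), Gc (3.45), C3 (3.421), Hpx (3.392), Cdkn2b (0.801), Dhcr7 (1.377), Bhlhe40 (1.237), Tnc (3.133), Hnf4a (2.417), Bcl3 (0.6013) and Slc7a11 (1.245). Lower at 6 weeks were Cd163 (-2.757), Il33 (-1.123), Dusp6 (-0.9426), Ptprn (-0.9216) and Ada (-0.9196). Hepatocyte marker sums were higher in every 6-week library than in any 2-week library, and their part in these differences was not tested.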

How the results depend on the processing

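Against healthy LSECs, 9777 to 10360 genes were DEG when each library was left out in turn, and no DEG of the full comparison changed sign as a DEG under any tool, scaling, filter or threshold tried with these libraries. Of 118 named genes tested, 100 kept their direction and their side of the threshold under every alternative, 7 lost their call under at least 1, 10 gained one under at least 1 (Ahsg, C3, Cd3e, Cltc, Cyp2e1, Ddit3, Hpx, Mmp9, Nfkbia and Ptrf) and 1 reversed. Lyve1 and Il33 lost it at a fold-change above 2, Lyve1, Des, Mmp2 and Top2a without TMM, Mmp2 without fibrosis replicate 12, and Mmp2, Isg15, Top2a and Ankrd1 with healthy replicates 3 and 5 as the only healthy libraries, an alternative chosen after seeing the marker sums. There, Alb was higher in fibrosis by 1.962 (log2), and 19 DEG changed sign. The cause was not tested. Higher LSEC identity genes went from 2 to 1 without fibrosis replicate 12, 13, 15 or 16 or healthy replicate 1, 2 or 4, higher NF-kappaB genes from 2 to 1 without any library except healthy replicates 1 and 2, and higher cholangiocyte markers from 2 to 1 without any library except fibrosis replicates 15 and 17. Without healthy replicate 6, 5 clathrin and lysosome genes were higher and 5 ribosomal protein genes lower, against 3 and 3 in full. Without fibrosis replicate 17, 2 S1P genes were higher, against 1.

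Between 6 and 2 weeks, 1170 to 1523 genes were DEG when each fibrosis library was left out, against 1529 in full. An unadjusted p gave 194 lower genes, no fold-change threshold gave 2826 DEG with 1116 lower, a fold-change above 2 gave 25 lower, library quality weights gave 2346 DEG with 264 lower, and 1 fit over 4 groups gave 746 DEG with 661 higher. For cirrhosis against fibrosis, 9621 to 9808 genes were DEG without each fibrosis library, and 2785 were lower at a fold-change above 2. No paired analysis was possible because the fibrosis libraries share no replicate number with the groups they were compared with.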
